A study of Bos taurus with 10 samples.

Results

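The mitochondrial cytosines were all positions named chrMT in the deposited files that carried 8 or more reads in at least 1 tissue, whatever the bases that followed them. There were 366 of them among 1868049 cytosines of the whole genome, which is 0.0196 %. They comprised 47 CG sites, 73 CHG sites and 246 CHH sites, where H is any base other than G. Of the 366, 218 lay on the forward strand and 148 on the reverse strand. The question was how much cytosine remained at them after bisulfite treatment, and whether CG sites held more of it than the non-CG sites beside them, which serve as a check on DNA that escaped conversion.

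Methylation was measured by reduced representation bisulfite sequencing (RRBS) in 1 library from each of 10 tissues of the Hereford cow L1 Dominette 01449 and relatives, so that tissue, animal and library cannot be told apart. Adult animals gave skeletal muscle from near a caesarean, whole testis, intercaruncular uterus, nucleated blood cells and a lactating mammary gland at d 90. Mammary parenchyma, frontal cortex, abomasum and ileum were from juveniles and the rumen from a fetus. Males gave testis and rumen, females gave all else, and the labels name no treatment. In RRBS the DNA is cut by *MspI* at CCGG, fragments of a limited length are selected, and bisulfite turns unmethylated cytosine into uracil, which is read as T, while methylated cytosine is still read as C. The methylation level of a cytosine is the percentage of its reads that show C.

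Mitochondrial DNA is a small circular genome that is present in many copies per cell and lies outside the nucleus, without the histones that package nuclear DNA. In nuclear DNA of mammals, methylation falls mainly on CG sites, where the maintenance enzyme DNMT1 copies it to the new strand after replication. Whether mitochondrial DNA carries methylation at all has been debated, because incomplete conversion by bisulfite leaves cytosines in every context and nuclear genomes contain copies of mitochondrial sequence. During library construction the ends left by *MspI* are also filled in with new cytosines, so that a cytosine in a CCGG at the end of a fragment can come from the reaction rather than from the tissue.

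The 366 cytosines formed 4 stretches on the mitochondrial genome of UMD3.1. The stretch from 9 to 112 held 42 cytosines, that from 2872 to 3042 held 75, that from 5557 to 5819 held 93 and that from 9056 to 9390 held 156. Each cytosine was deposited with the 5 bases around it, and these overlapping letters gave 802 bases and 9 CCGG sites, which bounded 5 complete *MspI* fragments of 54 to 207 bp. The incomplete fragment covered from 9 ended at the CCGG at 110. Gene annotation was not used here, because the gene table at hand belongs to another assembly. The 54-bp fragment and the 135-bp fragment are shown because every cytosine covered in all 10 tissues lay in them or in the CCGG sites that bound them, and the end of the first stretch is shown because it held the non-CG site with the highest mean level. They are written on the forward strand, 5′ to 3′, with the CCGG sites in capitals and n for a base that no deposited letters gave.

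chrMT:5763-5820, forward strand, 54-bp fragment with both CCGG sites: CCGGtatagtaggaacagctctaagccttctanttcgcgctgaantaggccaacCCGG
chrMT:9253-9391, forward strand, 135-bp fragment with both CCGG sites: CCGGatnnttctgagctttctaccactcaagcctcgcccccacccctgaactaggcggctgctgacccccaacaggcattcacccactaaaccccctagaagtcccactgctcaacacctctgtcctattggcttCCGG
chrMT:66-113, forward strand, end of the first stretch: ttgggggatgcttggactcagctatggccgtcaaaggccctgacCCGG

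The tissues differed in how many of these cytosines they covered. Skeletal muscle covered 364 of them, testis 328, frontal cortex 326, abomasum 305, the lactating mammary gland 295, ileum 225 and uterus 224. Mammary parenchyma covered 71, rumen 53 and nucleated blood cells 40. Skeletal muscle was also the only tissue to cover the 30 cytosines seen in a single tissue. A further 39 cytosines were covered in 2 to 4 tissues, 254 in 5 to 8 and 3 in 9. The 40 cytosines covered in all 10 tissues were 10.9 % of the mitochondrial ones, against 8.15 % of all cytosines of the genome, and were exactly those covered in blood.

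The median number of reads per covered mitochondrial cytosine was 81 in skeletal muscle, 42 in testis, 39 in frontal cortex, 38 in rumen, 29 in mammary parenchyma, 25 in abomasum, 23 in blood, 22 in uterus and in the lactating gland, and 18 in ileum. The autosomal medians of the same libraries were 20, 14, 22, 24, 21, 10, 27, 26, 24 and 27 reads. Skeletal muscle had the highest mitochondrial median, and uterus, ileum, blood and the lactating gland had fewer reads per mitochondrial than per autosomal cytosine. The log2 ratio of the medians was 0.57 ± 0.88 (SD, n = 10 tissues), was above 0 in 6 of 10 tissues and did not pass the test (two-sided exact sign-flip permutation, adjusted p = 0.114). Reads at mitochondrial cytosines made up between 0.00419 % of all reads at cytosines in blood and 0.371 % in testis. These shares join how much mitochondrial DNA entered a library with how its fragments were selected and amplified, and the parts were not measured separately.

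Depth fell very unevenly on the fragments. In testis the 54-bp fragment had a median of 6490 reads at its 17 shared cytosines outside CCGG. The other mitochondrial cytosines outside CCGG had a median of 38. The corresponding median of the 54-bp fragment was 2474 reads in frontal cortex, 745 in skeletal muscle, 453 in the lactating gland, 399 in uterus, 334 in ileum, 173 in rumen, 91 in abomasum, 37 in blood and 30 in mammary parenchyma. The other fragment covered in all tissues, of 135 bp, was likewise taken at its 19 shared cytosines outside CCGG. Its medians were 369 reads in skeletal muscle, 284 in abomasum, 162 in frontal cortex, 94 in the lactating gland, 53 in uterus, 43 in testis, 36 in rumen, 35 in ileum, 25 in mammary parenchyma and 17 in blood. The ratio of the first to the second was thus 151 in testis, 15.3 in frontal cortex, 1.2 in mammary parenchyma and 0.320 in abomasum, where the order was turned. The deepest fragment was thus not deepest by the same factor in each tissue, and its reads are no measure of mitochondrial content.

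**Figure D1:**
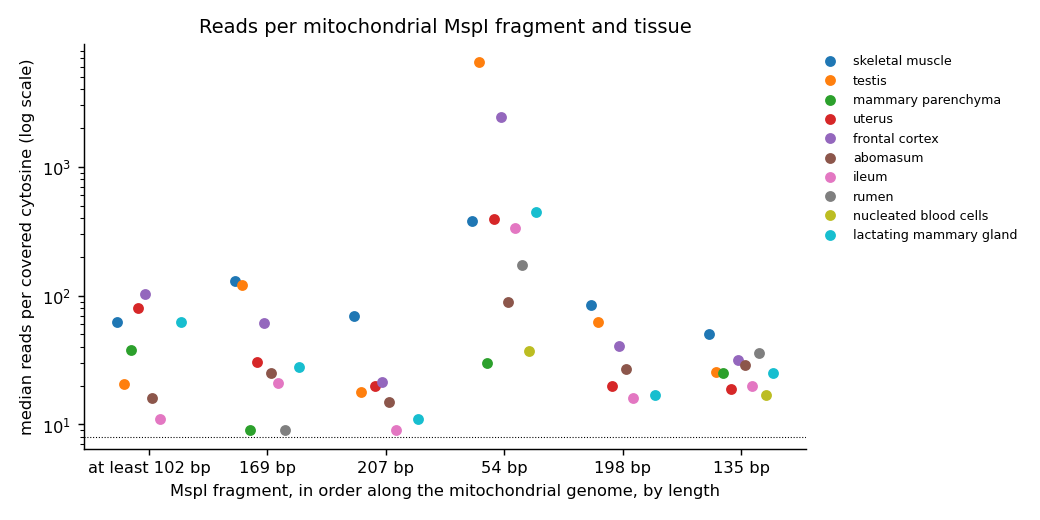
Median reads per covered cytosine outside CCGG (log axis) of 6 mitochondrial fragments, named by length in order along the genome, with 1 coloured point per tissue and a dotted line at the minimum of 8 reads. The 54-bp fragment stands far above the others in testis (median 6471) and frontal cortex (2425.5), and only it and the 135-bp fragment hold a point for each of the 10 tissues.

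Within the 54-bp fragment the depth did not reach the far end. On the forward strand, testis had 6486 reads at 5802 and 9 at 5812, the next covered cytosine, skeletal muscle had 821 and 37, and frontal cortex 2476 and 16. On the reverse strand the change lay between neighbouring bases. At the CHH site 5810 reverse, testis had 6742 reads, frontal cortex 2496, the lactating gland 451, uterus 408, skeletal muscle 371, ileum 350, rumen 180 and abomasum 97. At the next base, the CHH site 5811 reverse, the same tissues had 320, 121, 28, 25, 229, 24, 8 and 11 reads, and blood and mammary parenchyma fell below 8. A single base thus separated very different depths in testis, while skeletal muscle kept the larger part of its reads. The CG site 5801 reverse was another gap. It had 558 reads in testis, between 5799 reverse with 6747 reads and 5810 reverse, and 972 reads over the 9 tissues that covered it, where 5799 reverse had 11213 over 10 tissues. The CG site 5765 reverse had 159 reads in testis, 1 base from 6169 reads at 5766 reverse. Why reads are missing at these bases was not tested, and whether the deepest reads came from the mitochondrial genome or from a nuclear copy that differs at these bases was not tested either.

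**Figure D2:**
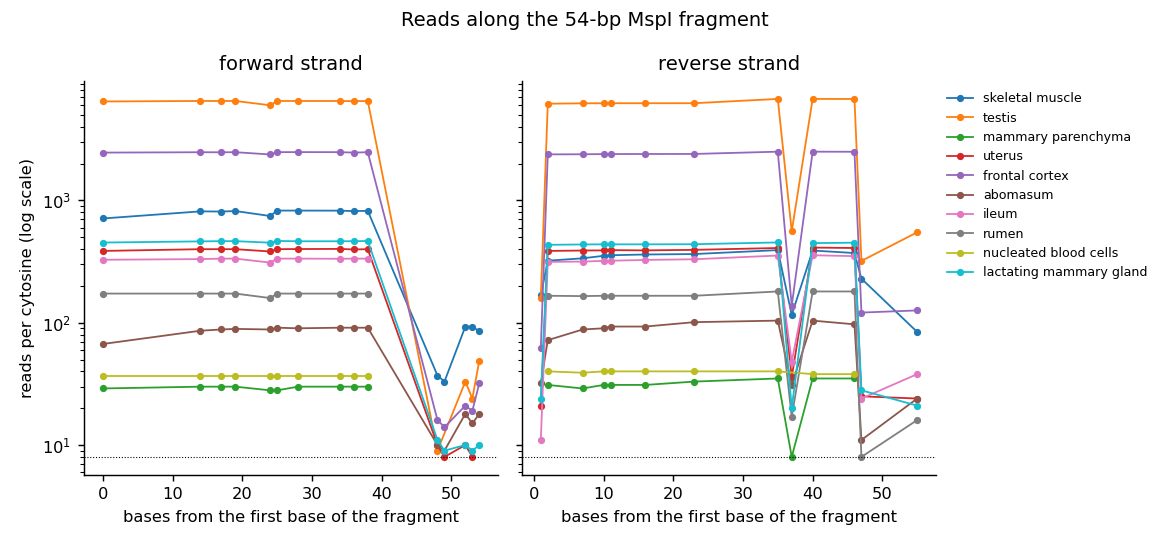
Reads at each covered cytosine of the 54-bp fragment and its CCGG sites (log axis) by distance in bases from the first base of the fragment, with the forward strand in the left panel, the reverse strand in the right, a line per tissue and a dotted line at 8 reads. On the reverse strand the reads dip at 5801, to 558 in testis, and drop between 5810 and 5811, from 6742 to 320 in testis.

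Mitochondrial levels were low in every context. Of 2231 values, each a cytosine in a tissue, 1497 (67.1 %) had no methylated read, and 12 lay above 20 %. No methylated read was seen in 149 of 306 CG values (48.7 %) and 1348 of 1925 non-CG values (70.0 %). With 8 reads, a value of 0 allows a wide range of true levels, and a single C gives a high one. Averaged over cytosines without weighting, CG sites had 3.33 % ± 1.03 and non-CG sites 1.10 % ± 0.495 (SD, n = 10 tissues). The CG mean was 5.62 % in rumen, 3.79 % in uterus and in testis, 3.72 % in skeletal muscle, 3.39 % in frontal cortex, 3.13 % in abomasum, 3.12 % in the lactating gland, 2.50 % in ileum, 2.26 % in blood and 2.0 % in mammary parenchyma. The non-CG mean was 1.14 %, 2.09 %, 0.705 %, 1.26 %, 1.18 %, 1.40 %, 0.730 %, 0.434 %, 1.46 % and 0.609 % in the same order. The lowest CG mean, in mammary parenchyma, lay below the highest non-CG mean, in uterus, but within each tissue the CG mean was the higher one.

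The CG minus non-CG difference was 2.23 ± 1.01 percentage points (SD, n = 10), ran from 0.797 in blood to 4.48 in rumen and was above 0 in 10 of 10 tissues (two-sided exact sign-flip permutation, p = 0.00195, the smallest value that 10 tissues allow, adjusted p = 0.00586 over 9 tests). When each CG site was set against the non-CG sites within 20 bp on its own strand, the difference was 2.10 ± 0.662 points, again above 0 in 10 of 10 tissues (exact permutation, adjusted p = 0.00586). These windows were not limited to a fragment. At a CCGG they can join cytosines on both sides of the cut, which come from different reads. The non-CG contexts themselves did not separate. CHG minus CHH was 0.0189 ± 0.914 points, above 0 in 3 of 10 tissues (exact permutation, p = 0.961), with single tissues between -0.763 and 2.10 points.

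That excess rested on the CG sites inside CCGG. Of the 47 CG sites, 18 lay in a CCGG, and this split was made after the values had been seen. The classes are therefore described without a test between them, and the tests repeated without these sites are alternatives added after seeing the data. Pooled over tissues, the CG sites in CCGG had 1242 methylated of 18650 reads, or 6.66 % (95 % Wilson interval 6.31–7.03), whereas the 29 CG sites outside had 183 of 43562, or 0.420 % (0.364–0.485). The non-CG sites outside CCGG had 1350 of 241010, or 0.560 % (0.531–0.591), and the outer cytosines of CCGG had 208 of 13012, or 1.60 % (1.40–1.83). The pooled level of CG sites outside CCGG was therefore slightly below that of all non-CG sites outside CCGG, near or far. The reads were spread unlike over the fragments. The 54-bp fragment gave 34776 of these CG reads and 154143 of these non-CG reads. As means within tissues, the CG sites in CCGG had 7.24 % ± 2.95 and those outside 1.04 % ± 0.799, higher in CCGG in 10 of 10 tissues. CG sites outside CCGG were above non-CG sites outside CCGG in 6 of 10 tissues, by -0.0327 ± 0.603 points on average, from -0.943 in abomasum to 0.888 in blood.

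With the CG sites of CCGG left out, the test of CG minus non-CG gave -0.0579 points, above 0 in 5 of 10 tissues (exact permutation, adjusted p = 0.837), and the test against nearby non-CG sites gave 0.14 points, above 0 in 4 of 10 (exact permutation, adjusted p = 0.665). Leaving out every cytosine of a CCG gave -0.128 points, adjusted p = 0.628, and 0.190 points, adjusted p = 0.498, in the same exact permutation tests. Leaving out the deepest fragment instead kept the difference at 1.63 points, above 0 in 8 of 10 tissues (exact permutation, adjusted p = 0.0352), and that against nearby non-CG sites at 1.13 points, above 0 in 9 of 10 (exact permutation, adjusted p = 0.0352). How much of the level in CCGG came from filled-in ends was not tested. Autosomal CG sites in CCGG were also higher than autosomal CG sites elsewhere, at 42.3 % ± 5.19 against 30.8 % ± 2.66, in 10 of 10 tissues.

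**Figure D3:**
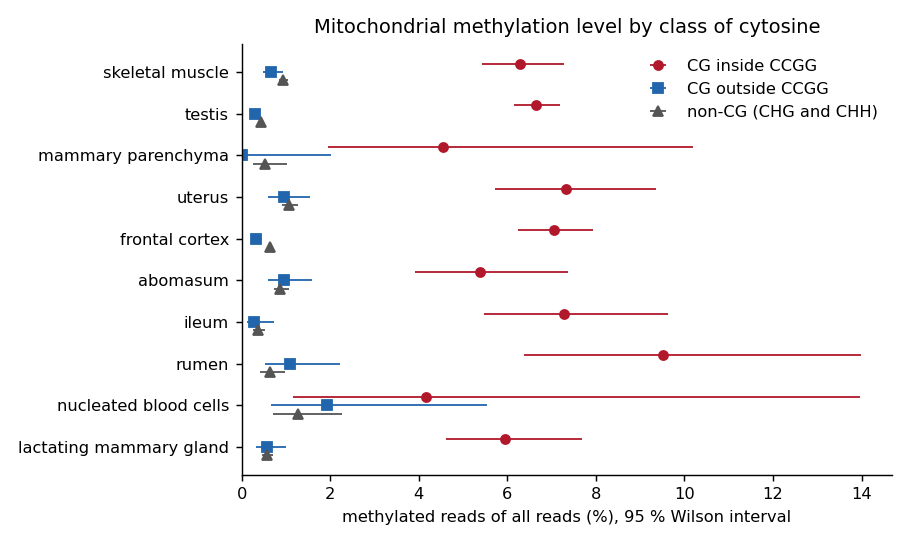
Pooled methylation level (percent of reads) of mitochondrial CG sites in CCGG, CG sites outside CCGG and non-CG sites in each of the 10 tissues, with 95 % Wilson intervals that cover counting error only. CG sites in CCGG stand between 4.17 % in blood and 9.52 % in rumen, while the CG sites outside stay at or below 1.94 %.

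In the pooled reads of each tissue, CG sites in CCGG stood above CG sites outside, in 10 of 10 tissues, whereas CG sites outside CCGG stood above non-CG sites outside CCGG in 4 of 10. CG sites in CCGG had 9.52 % of 231 reads in rumen, 7.33 % of 791 in uterus, 7.28 % of 604 in ileum, 7.05 % of 3477 in frontal cortex, 6.65 % of 9154 in testis, 6.28 % of 2643 in skeletal muscle, 5.96 % of 923 in the lactating gland, 5.38 % of 669 in abomasum, 4.55 % of 110 in mammary parenchyma and 4.17 % of 48 in blood. The intervals of all these tissues overlapped. CG sites outside CCGG ran from 0 of 187 reads in mammary parenchyma (upper bound 2.01 %), and 0.289 % of 1385 in ileum, to 1.94 % of 155 in blood. In testis, the library with the most summed reads at mitochondrial cytosines, they had 65 of 22115 reads (0.294 %, 0.231–0.374). Testis non-CG sites outside CCGG had 0.375 % (0.341–0.413), so that the intervals overlapped.

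Each value was also compared with the pooled mitochondrial non-CG level of its own library, by whether the lower bound of its interval lay above that level. This was so for 74 of 115 values of CG sites in CCGG (64.3 %), 17 of 191 values of CG sites outside (8.9 %) and 215 of 1925 non-CG values (11.2 %), with 306 of 2231 values (13.7 %) over all mitochondrial cytosines. The share of CG sites outside CCGG did not exceed that of non-CG sites, whose own values make up the reference level. A single methylated read among few can pass this rule, and the counts are a description.

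The non-CG level in mitochondria was compared with that on the autosomes, which each library converted in the same reaction. The mitochondrial mean was 1.10 % ± 0.495 and the autosomal mean 1.3 % ± 0.203, a difference of -0.245 ± 0.499 points that did not pass the test (above 0 in 2 of 10 tissues, exact permutation, adjusted p = 0.206). Weighting by reads made the difference -1.13 points, below 0 in 10 of 10 tissues (exact permutation, adjusted p = 0.00439). It took the mitochondrial mean to 0.735 % and also raised the autosomal mean, so the larger difference is not from mitochondrial sites alone. At a minimum of 20 reads the difference was -0.605 points, also below 0 in 10 of 10 (exact permutation, adjusted p = 0.00586). Without weighting, uterus had the highest mitochondrial non-CG mean and ileum the lowest.

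Among the shared sites, the highest CG level was at 5764 forward, the first base of the 54-bp fragment after the cut. It had 6.33 % of 711 reads in skeletal muscle, 6.64 % of 6432 in testis, 10.3 % of 29 in mammary parenchyma, 9.59 % of 386 in uterus, 7.29 % of 2457 in frontal cortex, 4.48 % of 67 in abomasum, 8.56 % of 327 in ileum, 8.67 % of 173 in rumen, 5.41 % of 37 in blood and 7.74 % of 452 in the lactating gland. The mean was 7.5 % ± 1.85 (SD, n = 10), and every tissue lay between 4.48 % and 10.3 %, although depth ran from 29 to 6432 reads. Pooled, 774 of 11071 reads showed C (6.99 %, 6.53–7.48). The reverse-strand CG of the same CCGG, 5765 reverse, was covered in 7 tissues with a pooled 4.19 % of 477 reads.

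The CG sites inside the 54-bp fragment were far lower, 5798 and 5800 on the same strand as 5764 and 5799 on the other. At 5799 reverse, 6 of 11213 reads showed C over all tissues (0.0535 %, 0.0245–0.117), 5 of them among the 6747 reads of testis and 1 among the 180 of rumen. The other 8 tissues had no methylated read there, which allows up to 0.12 % among the 2500 reads of frontal cortex and up to 8.57 % among the 35 of mammary parenchyma. At 5800 forward, 40 of 11270 reads did (0.355 %, 0.261–0.483), with 0.386 % in testis, 0.204 % in frontal cortex and none in mammary parenchyma, abomasum or blood. At 5798 forward, 60 of 11321 reads did (0.530 %, 0.412–0.682), and the highest value was 5.41 % in blood, from 2 of 37 reads. Without blood its mean of 1.07 % was 0.593 %. These sites form the run cgcg in the middle of the fragment printed above, and 5798 forward and 5799 reverse are the cytosines of one CG on opposite strands. Their pooled intervals, 0.412–0.682 and 0.0245–0.117, did not overlap, which covers counting error only.

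Non-CG sites of the 54-bp fragment, its most deeply read ones included, had levels of the same size. The CHG site 5804 reverse had 0.562 % of pooled reads and the CHH site 5810 reverse 0.412 %. Over the whole fragment without its CCGG ends, non-CG sites had 598 of 154143 reads (0.388 %, 0.358–0.420) and CG sites 111 of 34776 (0.319 %, 0.265–0.384). In the other fragments non-CG sites had 0.742 % to 1.08 %, and CG sites from 0 of 636 reads (upper bound 0.60 %) in the first stretch to 1.26 % in the 135-bp fragment. Testis alone had 0.325 % at the shared non-CG sites of the 54-bp fragment outside CCGG (0.290–0.365), frontal cortex 0.486 % (0.417–0.565) and uterus 0.775 % (0.576–1.04). With reads pooled over tissues, the deepest fragment thus had the lowest non-CG level of the fragments. Within skeletal muscle, mammary parenchyma, rumen and blood it was also the lowest. In testis, uterus, frontal cortex, abomasum, ileum and the lactating gland another fragment was lower. Uterus, for example, had 0.767 % in the 54-bp fragment and 0.371 % in the 169-bp fragment. The pooled order therefore also depends on which tissues gave the reads.

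The 135-bp fragment gave the other shared CG sites, all on the reverse strand. The site 9390 reverse, in the CCGG at its end, had 12.1 % of 33 reads in rumen, 8.0 % of 25 in ileum, 6.90 % of 58 in uterus, 5.48 % of 146 in frontal cortex, 5.41 % of 74 in the lactating gland, 3.35 % of 239 in skeletal muscle and 2.94 % of 136 in abomasum. It was 0 in testis, mammary parenchyma and blood, with 36, 23 and 11 reads, which allow a level of up to 8.33 %, 13.0 % and 27.3 % at 3 counts per library. Its mean was 4.42 % ± 3.98, and its pooled level 4.35 % (3.13–6.02). Inside the fragment, 9288 reverse had a pooled 1.43 % (0.906–2.25), of which abomasum gave 12 of 18 methylated reads and without which its mean of 0.927 % was 0.595 %, and 9309 reverse had 0.953 % (0.519–1.75).

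The highest shared non-CG sites were of the same order as these inner CG sites. They were the CHG site 9300 reverse with 2.16 % ± 2.36 over tissues, the CHG site 5766 reverse with 2.06 % ± 1.41, the CHH site 9383 reverse with 2.0 % ± 3.1, the CHG site 9316 reverse with 1.18 % ± 3.30 and the CHG site 9313 reverse with 1.06 % ± 1.95. Of these, 5766 reverse is the outer cytosine of a CCGG, with 105 of 6169 reads (1.70 %) methylated in testis. Blood, the library with the fewest mitochondrial reads, had the highest value at all 5, from 25, 40, 12, 19 and 20 reads. Without blood the mean was 1.25 % at 9383 reverse, 0.136 % at 9316 reverse and 0.619 % at 9313 reverse, and without testis it was 0.681 % at 9313 reverse.

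**Figure D4:**
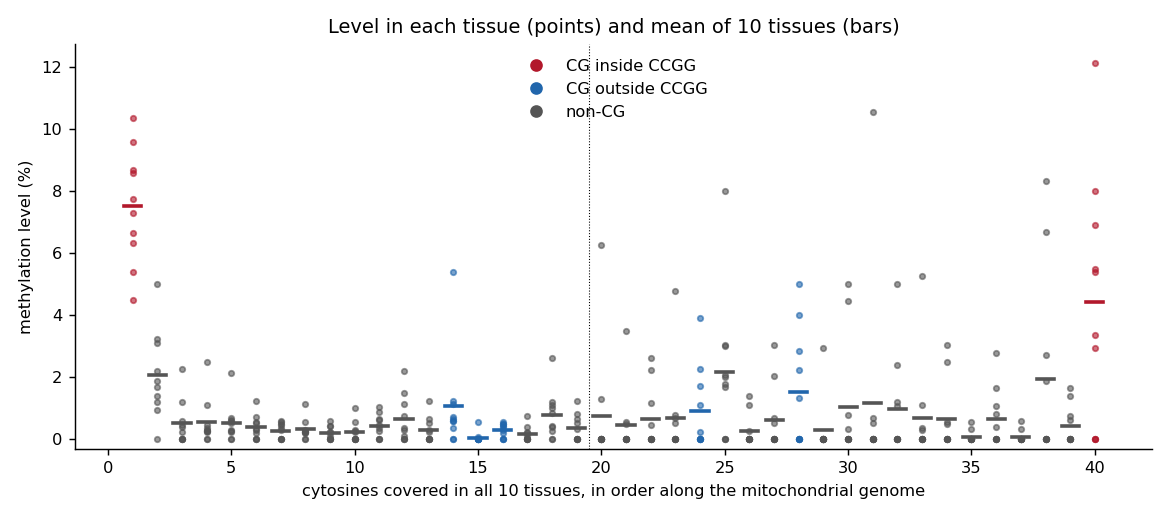
Methylation level (percent) at the 40 cytosines shared by all 10 tissues, in order along the mitochondrial genome, with 1 point per tissue, a bar for the mean of 10 tissues, colours for CG in CCGG, CG outside CCGG and non-CG, and a dotted line between the 54-bp and 135-bp fragments. The CG sites 5764 forward (mean 7.5 %) and 9390 reverse (mean 4.42 %), both in CCGG, stand above the other shared sites.

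Separating shared sites from the rest gave lower levels at the shared ones. Over the 9 tissues that covered other sites as well, shared CG sites had 2.26 % ± 0.872 and other CG sites 3.98 % ± 1.57, a difference of -1.72 ± 1.16 points, below 0 in 9 of 9 tissues (exact permutation, p = 0.00391, the smallest value that 9 tissues allow, adjusted p = 0.00879). Shared non-CG sites had 0.563 % ± 0.0852 and other non-CG sites 1.32 % ± 0.823, a difference of -0.757 ± 0.777 points, above 0 in 1 of 9 tissues (exact permutation, adjusted p = 0.0211). The classes did not have the same depth. In these 9 tissues median reads were 29 to 371 at shared and 9 to 70 at other sites. In mammary parenchyma the other sites were the deeper ones, at 38 against 29 reads. Nor did the classes have the same makeup, since 2 of 7 shared CG sites and 18 of all 47 CG sites lay in CCGG. Without the CG sites of CCGG the CG difference was -0.399 points (exact permutation, adjusted p = 0.330), and at a minimum of 10 reads neither difference passed the test (exact permutation, adjusted p = 0.186 for CG and 0.0615 for non-CG).

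The strands differed at CG sites and not detectably at non-CG sites. Forward CG sites had 5.18 % ± 2.34 and reverse CG sites 2.11 % ± 0.531, a difference of 3.07 ± 2.06 points, above 0 in 10 of 10 tissues (exact permutation, adjusted p = 0.00586). Without the CG sites of CCGG it was 0.573 points, above 0 in 6 of 10 (exact permutation, adjusted p = 0.330). Forward minus reverse non-CG level was 0.191 ± 1.22 points, above 0 in 7 of 10 tissues (exact permutation, p = 0.646, adjusted p = 0.727).

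Few sites stood far above the rest. The CG site 5818 forward, in the CCGG that closes the 54-bp fragment, had 79.6 % of 49 reads in testis, 61.1 % of 18 in abomasum, 56.5 % of 85 in skeletal muscle, 40.6 % of 32 in frontal cortex and 3 of 10 reads in the lactating gland. It was covered in those 5 tissues, had a mean of 53.6 % ± 19.1 and a pooled 114 of 194 reads (58.8 %, 51.7–65.5), and every tissue that covered it exceeded its level at 5764 forward. The opposite cytosine of the same CG, 5819 reverse, had 47 of 881 pooled reads (5.33 %, 4.04–7.02) and 6.02 % of 548 in testis. With 5818 forward left out of the means, CG sites had 2.71 % ± 1.18. The site 5818 forward is also the first base beyond the cut that ends the 54-bp fragment, so a read through the fragment's end and a read that begins there both report on it.

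The non-CG site with the highest mean level over the tissues that covered it, and with the highest single value at 20 or more reads, was the CHH site 109 forward, 1 base before the CCGG at 110 in the third sequence printed above. It had 38.3 % of 94 reads in skeletal muscle, 3 of 10 reads in uterus, 23.1 % of 13 in the lactating gland, 10.0 % of 20 in frontal cortex, 7.69 % of 13 in abomasum and 7.14 % of 14 in testis. The pooled level was 46 of 164 reads (28.0 %, 21.7–35.4), and skeletal muscle gave 36 of the 46. The outer cytosine next to it, 110 forward, had 1 of 212 reads, and the CG at 111 forward 52 of 968 (5.37 %, 4.12–6.98). Without 109 forward the non-CG mean was 1.06 % ± 0.468.

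Other CG sites of CCGG, named here after their values were seen, lay between these extremes. The pooled level was 7.48 % of 896 reads at 9255 reverse, where single tissues ran from 2.33 % in abomasum to 10.3 % in ileum, and 4.32 % of 973 at 3042 reverse. It was 1.44 % of 554 at 112 reverse, the lowest of those named. Levels of a few percent at CG sites of CCGG were thus found in all 4 stretches and on both strands.

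None of the 40 shared mitochondrial cytosines differed between tissues by the thresholds applied to the genome. Each of the 40 shared sites was tested in each of 45 pairs of tissues with Fisher's exact test of methylated and unmethylated reads. A call needed 25 points or more and q below 0.01, adjusted over the shared cytosines of the whole genome for that pair. By this rule 0 of 40 mitochondrial sites were differentially methylated, against 7.24 % of all 152300 shared cytosines and 19.8 % of the 53007 shared CG sites. At a difference of 10 points the counts were 0 of 40, against 8.18 % and 22.1 %. Of the 40 sites, 7 were CG (17.5 %) and 33 were non-CG, a smaller part of CG than among all shared cytosines. The shares over all cytosines are thus for a set of another makeup. With so few CG sites, the count of 0 is not read as a deficit. Of the 1800 tests of a mitochondrial site in a pair, 0 had q below 0.01 and 37 had an unadjusted p below 0.05 by Fisher's exact test. The largest difference was 12.1 points, at 9390 reverse between rumen with 33 reads and testis with 36. No shared site reached a difference of 25 points, and the sites not covered in all tissues, 5818 forward and 109 forward among them, were not tested. With 1 library per tissue these tests compare libraries.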

How the data were processed

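RRBS libraries of 10 tissues, 1 per tissue, were analysed. Reads were trimmed and mapped to UMD 3.1 by the authors, who used unique alignments. Cytosines reaching 8 reads were deposited with strand, context, surrounding letters, a raw count of reads and the methylation level as a fraction. A p-value, its FDR and another read number were deposited as well and not used here. Multiplying level by reads gave whole numbers of methylated reads, within 1e-06, throughout.

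A tissue's level was the unweighted mean of its cytosines, and differences were tested over tissues by two-sided exact sign-flip permutation, with Benjamini-Hochberg adjustment over 9 tests. Pairs of tissues were compared by Fisher's exact test, q below 0.01 and 25 points, over all shared cytosines. Calling was tested on simulated data with a random seed of 1. Intervals are 95 % Wilson intervals. Reads carry no molecular identifiers, so intervals cover counting error only, and reads at neighbouring cytosines are not independent. The summed reads per library ranged from 16125651 to 40089443. CCGG sites were read from the deposited 5-base letters, which matched the stated context at every mitochondrial cytosine.

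Named sites were the shared CG sites, the 5 highest shared non-CG sites, sites above 20 % with at least 20 reads in a tissue and the 3 deepest. The members, lists and tests were chosen with earlier results of these data known. The alternatives tried were minimums of 10 and 20 reads, pooled reads, each tissue left out, cytosines of CCG, the highest read number, shared sites, and other windows and thresholds. Leaving out the CG sites of CCGG, or the deepest fragment, was added after seeing the data. The software was matplotlib 3.10.9, Numba 0.67.0, pandas 2.3.3, SciPy 1.17.1 and NumPy 2.4.6 under Python 3.11.15.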

Additional observations from a re-analysis of the deposited data

How the results depend on the processing

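Of 176 values of the tests under alternatives, 148 kept their direction and their side of the threshold, 15 no longer passed it, 4 newly passed it and 9 turned direction, and 199 of 199 values at the 16 named sites moved by less than the SD over tissues, which at low levels still allowed moves of over 1.5 times. Leaving out blood took the mean from 1.18 to 0.136 % at 9316 reverse, and leaving out rumen took it from 0.0630 to 0.00823 % at 5799 reverse. Without the cytosines of CCG, CG minus non-CG turned to -0.128 points, CG minus nearby non-CG was 0.190, CHG minus CHH -0.0192, forward minus reverse CG 0.786, shared minus other CG -0.642 and shared minus other non-CG -0.886. Without the CG sites of CCGG, the corresponding values were -0.0579 and 0.14 points for CG, 0.573 for strand, -0.399 for shared CG and -0.757 for shared non-CG, where the last lost its call through the adjustment (adjusted p = 0.105, exact permutation). Without the deepest fragment, forward minus reverse CG was 3.77 points and no longer passed, forward minus reverse non-CG was 0.814 and passed, and shared minus other was -1.10 for CG and -0.742 for non-CG, and neither passed. At a minimum of 10 reads CHG minus CHH was -0.0191, shared minus other CG -0.895 and non-CG -0.957. At a minimum of 20 reads the latter were -1.10 and -0.308, and mitochondrial minus autosomal non-CG was -0.605 and passed. With pooled reads forward minus reverse non-CG was -0.0643 and mitochondrial minus autosomal non-CG -1.13. Over shared sites alone these were -0.380 and -0.734. With each tissue left out in turn, CHG minus CHH ran from -0.213 to 0.106, with -0.0885 without rumen and -0.213 without blood, and forward minus reverse non-CG from -0.0730 without uterus to 0.418, while CG minus non-CG stayed between 1.98 and 2.39. The cause of these changes was not tested, other than that each alternative holds fewer cytosines or weights them differently. The count of mitochondrial differentially methylated cytosines was 0 under every alternative run. No paired analysis was possible because the only replicate number is 1, with 1 library per tissue, so that no number pairs libraries. The classes of cytosines were compared within tissues in the sign-flip tests.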
